A study of Mus musculus with 8 samples.

Results

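In mouse embryonic stem cells that lack 3 DNA methyltransferases, 44 transcribed loci drawn in regular medium were matched in the other 3 libraries. None of them overlapped a locus in any library of the J1 line, in which these enzymes are intact. In the opposite direction, 10 loci drawn in J1 in regular medium were matched in the other 3 J1 libraries and in no library of the methyltransferase knockout. Absence holds for the locus as drawn in regular medium with DAXX intact. The locus matched to it in another library can be longer and overlap loci of the other background. The TKO-only loci are the loci of TKO in regular medium with an FPKM of at least 1 that overlap, by at least 1 bp, a locus in each of the other 3 TKO libraries and none in any J1 library. They are 44 of 14752 loci with that FPKM and that presence in TKO. The J1-only loci were chosen the same way with the backgrounds exchanged, and are 10 of 14798. Both sets were thus chosen by FPKM and by presence or absence in these libraries, and the difference between TKO and J1 is not a finding. FPKM are fragments scaled by transcript length and by library size, as estimated for each library by the authors. A locus is a stretch of mm9 to which reads were assembled, and a library that lists no locus at a place gives no value there, which is not the same as a level of 0.

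DNA methyltransferases set and maintain the methyl groups on cytosines of the genome, and embryonic stem cells that lack them remain viable and keep growing. In mouse cells DNA methylation is known for keeping many retrotransposons and some germline genes silent. DAXX is a histone chaperone that deposits the histone variant H3.3 together with ATRX, and acts at repeats and telomeres.

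The series holds 8 RNA-sequencing libraries, 1 for each group. TKO DAXX-knockout and TKO cells have 3 DNA methyltransferases (DNMTs) knocked out, with and without the additional DAXX knockout, and J1 DAXX-knockout and J1 cells have none of the 3 knocked out. Each of the 4 lines was grown with the MEK inhibitor PD0325901 at 1 µM, the GSK3b inhibitor CHIR99021 at 3 µM (the pair called 2i) and vitamin C at 100 µg/ml for 72 h, or in regular medium without them. Below, a library goes by its line and its medium, and 2i is short for 2i plus vitamin C. The genotype label reads WT for the J1 DAXX-knockout libraries too, whose titles give the DAXX knockout, and no label says whether a line is 1 clone. All libraries are of cytoplasmic RNA captured on oligo-dT beads, and no group has a replicate.

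Library totals ranged from 73.8 M to 99.1 M reads in TKO and from 67.4 M to 91.8 M reads in J1. Between 21515 and 23892 loci were listed per TKO library and between 20133 and 23561 per J1 library, 177841 in all. The deepest library was TKO regular, from which the TKO-only loci were drawn, and the part of depth in the membership was not tested. The files pair no gene names with the loci, so each is given by its mm9 position as listed, and the knocked-out genes were not examined.

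Most loci of either background were found in the other. Of the 14752 TKO loci, 13655 (92.6%) overlapped a locus in all 4 J1 libraries, 700 in 3, 262 in 2, 91 in 1 and 44 (0.298%) in none. Of the 14798 J1 loci, 14237 (96.2%) overlapped a locus in all 4 TKO libraries, 413 in 3, 106 in 2, 32 in 1 and 10 (0.0676%) in none. The member counts thus stand at the low end of a graded series, and both backgrounds have more loci at each further library. The count also depends on single libraries. Of the 91 TKO loci with a match in a single J1 library, 39 were matched in J1 DAXX-knockout 2i, 16 in J1 DAXX-knockout regular, 24 in J1 2i and 12 in J1 regular. Without J1 DAXX-knockout 2i in the rule the TKO-only loci number 83, and without J1 2i they number 68. Without TKO DAXX-knockout 2i they number 70. The same kind of rule was applied to the other 2 factors, with the loci drawn from a TKO library each time. It gave 20 DAXX-knockout-only and 7 DAXX-intact-only loci, and 91 2i-only and 33 regular-medium-only loci. The TKO-only set is thus larger than either DAXX set and lies between the medium sets in size. The J1-only set of 10 lies between the DAXX sets and is smaller than either medium set.

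**Figure D1:**
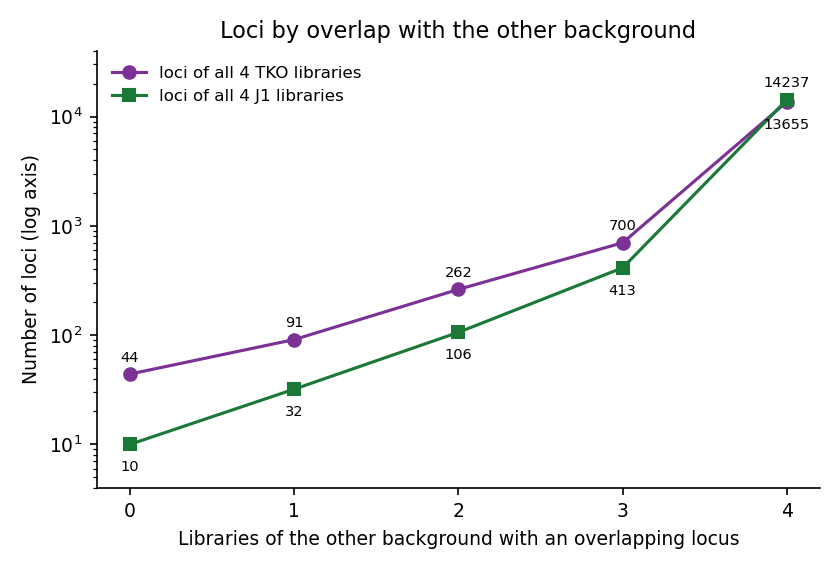
Number of loci (log axis) against the number of libraries of the other background, 0 to 4, that hold an overlapping locus. Purple circles are the 14752 loci present in all 4 TKO libraries and green squares the 14798 loci present in all 4 J1 libraries; the members are the points at 0, with 44 and 10 loci.

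The TKO-only loci were short and low for the most part. Their median span was 1057 bp, beside 14454.5 bp over all 14752 loci, and 22 of the 44 (50%) spanned under 1000 bp, beside 12.5% of all loci. Their median FPKM in TKO regular was 2.01, beside 8.64 over all loci, and 22 (50%) lay under 2, beside 15.5%. The J1-only loci had a median span of 934 bp, beside 13276.5 bp over all J1 loci. Their median FPKM in J1 regular was 1.57, beside 8.44, and 7 of the 10 lay under 2. These are descriptions without a test, as span and level bear on whether a locus is listed and overlapped.

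The threshold of 1 FPKM sat within the bulk of such loci. The lowest member inside it was chr13:62391511-62392349 at 1.01 FPKM in TKO regular, and the highest locus outside it was chr1:107677309-107724223 at 0.992, the first of 87 that met the rest of the rule and reach down to 0.219. For the J1-only set the lowest member was chr2:37430145-37433894 at 1.19 FPKM in J1 regular, and the highest locus outside was chr11:29061886-29062667 at 0.878, the first of 11 that reach down to 0.402. In 24 of the 44 TKO-only loci, and in 4 of the 10 J1-only loci, the lower bound of the authors' FPKM interval in the regular library was itself at least 1.

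**Figure D2:**
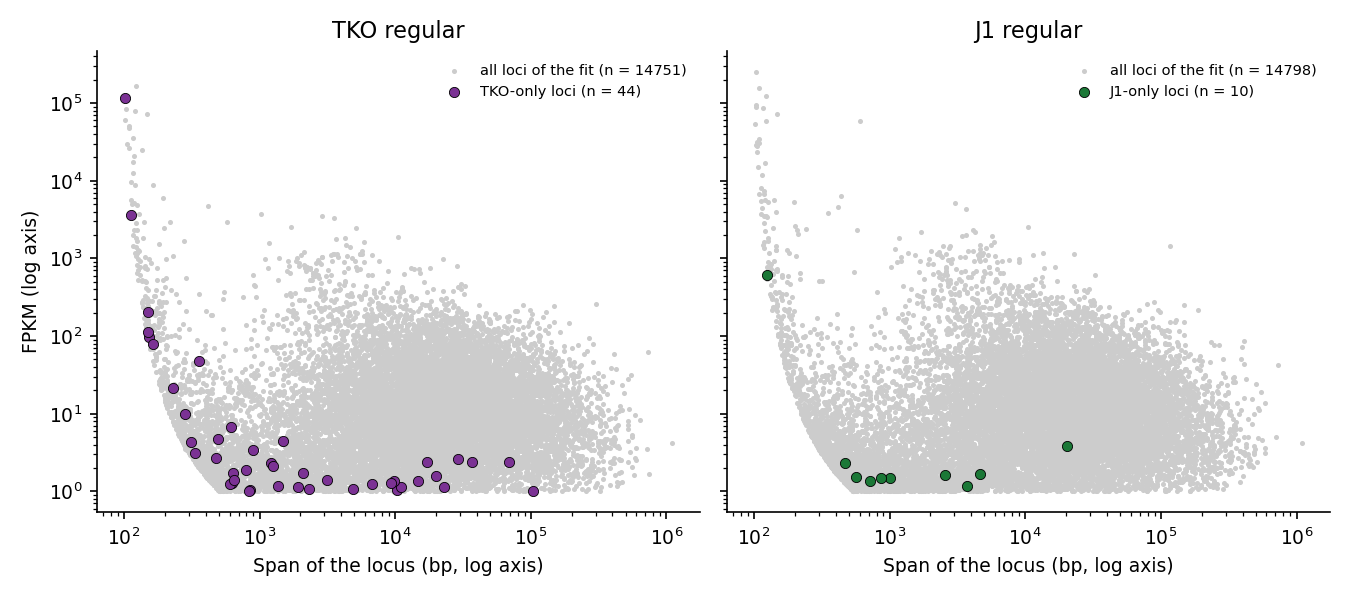
FPKM against the span of the locus (both log axes) in TKO regular (left) and J1 regular (right). Grey points are all loci of the fit, and large points are the 44 TKO-only and 10 J1-only loci, which lie along the lower and the short edge of the grey cloud.

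A few TKO-only loci had very high FPKM, and these were the shortest. All 6 members under 200 bp were at 79.5 FPKM or more in TKO regular, with a median of 159, while the members of 200 bp or more had a median of 1.66. The same holds for loci in general: the median FPKM was 243 over the 174 TKO loci under 200 bp and 8.41 over the others. FPKM divides by length, and for loci about as short as a cDNA fragment the divisor becomes small. A high FPKM at a locus of this size is therefore not comparable with that of a long one. Values are compared below between libraries at the same locus. The drawn span can differ between libraries there too, which bears on those comparisons.

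The highest was chr14:111760317-111760419, 102 bp long, with 62283 FPKM in TKO DAXX-knockout 2i, 73202 in TKO DAXX-knockout regular, 164337 in TKO 2i and 115450 in TKO regular. The libraries with DAXX knocked out were the lower pair, although the authors' intervals in the 4 libraries shared a value. Its bounds differed by at most 1 bp between the 4 libraries. The nearest J1 locus lay 420 bp away, in J1 DAXX-knockout regular, spanned 159 bp and had 219 FPKM, and all 4 J1 libraries listed a locus within 1000 bp.

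The second, chr13:68295304-68295416, stood far from any J1 locus. It spanned 112 bp and had 1823 FPKM in TKO DAXX-knockout 2i, 5154 in TKO DAXX-knockout regular, 4650 in TKO 2i and 3590 in TKO regular. TKO DAXX-knockout 2i was the lowest, with an interval that overlapped those of the others, and the nearest J1 locus was 285979 bp away. The 153-bp locus chr17:18613638-18613791 was of the same kind, with 34.0, 77.3, 115 and 97.8 FPKM in TKO DAXX-knockout 2i, TKO DAXX-knockout regular, TKO 2i and TKO regular. Here too TKO DAXX-knockout 2i was lowest, and the next J1 locus lay 635779 bp away, the largest distance among the TKO-only loci.

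The other short loci varied more between libraries. At chr6:120018667-120018818 the FPKM was 93.2 in TKO DAXX-knockout 2i, 676 in TKO DAXX-knockout regular, 80.6 in TKO 2i and 204 in TKO regular. Both regular-medium libraries were thus above both 2i libraries. However, this locus was drawn longer in 2i, at 159 bp in TKO DAXX-knockout 2i and 173 bp in TKO 2i. In TKO DAXX-knockout regular and TKO regular it was drawn at 147 and 151 bp, and the part of span was not tested. At chr5:104453452-104453615 the FPKM was 46.6 in TKO DAXX-knockout 2i, 106 in TKO DAXX-knockout regular, 194 in TKO 2i and 79.5 in TKO regular, with no order by DAXX or by medium. At chr7:27796634-27796784 it was 215 in TKO DAXX-knockout 2i, 6.67 in TKO DAXX-knockout regular, 355 in TKO 2i and 114 in TKO regular. The low value stands apart, and in that library the locus was drawn with bounds up to 475 bp from those in the others, which itself changes FPKM at this size. J1 loci lay 342 bp from the chr5 locus and 694 bp from the chr7 locus.

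Next in span, the 229-bp locus chr5:125871213-125871442 had 8.69 FPKM in TKO DAXX-knockout 2i, 38.7 in TKO DAXX-knockout regular, 41.9 in TKO 2i and 21.5 in TKO regular. Its bounds agreed within 11 bp in the 4 libraries, and the closest J1 locus, at 1.04 FPKM, was 1490 bp away. At chr12:23302411-23302694 the FPKM was 32.5 in TKO DAXX-knockout 2i, 33.2 in TKO DAXX-knockout regular, against 7.17 in TKO 2i and 9.84 in TKO regular. The values with and without DAXX did not overlap, while the intervals of TKO DAXX-knockout regular, 12.7 to 53.7, and TKO regular, 5.97 to 13.7, did. The locus was drawn at 201 bp in TKO DAXX-knockout 2i and 186 bp in TKO DAXX-knockout regular, against 281 bp in TKO 2i and 283 bp in TKO regular, a difference that bears on FPKM at this size. The closest J1 locus lay 25068 bp away.

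Some members lay beside a J1 locus, and their ends differed between TKO libraries. The locus chrX:103382055-103382410 had 9.09 FPKM in TKO DAXX-knockout 2i, 186 in TKO DAXX-knockout regular, 315 in TKO 2i and 47.7 in TKO regular, but its right end differed by 16635 bp between these libraries. A J1 regular locus of 16583 bp at 194 FPKM began 45 bp from it, and all 4 J1 libraries had a locus within 1000 bp. In TKO 2i and TKO DAXX-knockout regular the matched locus spanned 16980 bp and overlapped that J1 locus. Likewise, chr11:44430724-44431577 was matched to loci of 389858 bp in TKO 2i and 394497 bp in TKO DAXX-knockout regular. Both overlapped a J1 DAXX-knockout 2i locus of 389034 bp that began 80 bp from the member. Of the 44 TKO-only loci, 14 lay within 1000 bp of a J1 locus in at least 1 library, 5 of them in all 4 J1 libraries, and 24 lay within 10 kb. The distance to the nearest J1 locus ran from 26 bp to 635779 bp with a median of 8738.5 bp, and 8 members were over 100 kb away. When a J1 locus within 1000 bp also counted as a match, 30 TKO-only loci remained.

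The drawn bounds also varied within TKO. In 9 of the 44 loci both ends agreed within 100 bp in the 4 TKO libraries, and in 16 an end differed by over 10 kb. An overlap of at least 50% in both directions in every TKO library was met by 19 (43.2%), beside 72.7% of all loci. The pairs chrX:151420538-151430373 and chrX:151487664-151496908, chr18:37778590-37779803 and chr18:37778596-37779857, and chr8:89667022-89681835 and chr8:89681978-89682472 were each matched to a single locus in at least 1 other TKO library. These 6 members are therefore not 6 separate observations.

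A subset combined sharp bounds with distance from J1. In 8 TKO-only loci both ends agreed within 500 bp in the 4 TKO libraries and no J1 locus lay within 10 kb, a count made after the values were seen. They are the loci at chr13:68295304, chr6:120018667, chr17:18613638 and chr12:23302411 given above, and 4 longer ones. At chr5:34326173-34327649 (1476 bp) the FPKM was 13.5 in TKO DAXX-knockout 2i, 8.56 in TKO DAXX-knockout regular, 8.01 in TKO 2i and 4.53 in TKO regular. The interval of the TKO 2i value started at 0, so that value is weakly determined. At chr11:96959477-96976556 (17079 bp) it was 2.69 in TKO DAXX-knockout 2i, 9.87 in TKO DAXX-knockout regular, 1.81 in TKO 2i and 2.42 in TKO regular. The TKO DAXX-knockout regular library alone was high there, and its interval, 8.92 to 10.8, did not reach those of the other 3.

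At chr6:70125385-70126286 (901 bp) the FPKM was 1.10 in TKO DAXX-knockout 2i, 0.730 in TKO DAXX-knockout regular, against 2.15 in TKO 2i and 3.39 in TKO regular, so both DAXX-knockout libraries were below both DAXX-intact ones. The longest TKO-only locus, chr15:34504544-34608385, spanned 103841 bp with ends that agreed within 250 bp. It had 1.33 FPKM in TKO DAXX-knockout 2i, 4.01 in TKO DAXX-knockout regular, 1.07 in TKO 2i and 1.01 in TKO regular. As at the chr11 locus, TKO DAXX-knockout regular was the high library, and the nearest J1 locus, 651 bp long, was 42999 bp away.

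The next longest members were chr18:77424555-77494067 and chr5:144119055-144156136. The chr18 locus had 1.22 FPKM in TKO DAXX-knockout 2i, 1.23 in TKO DAXX-knockout regular, 2.08 in TKO 2i and 2.38 in TKO regular. It spanned 913 bp in TKO DAXX-knockout 2i and 902 bp in TKO DAXX-knockout regular, against 69604 bp in TKO 2i and 69512 bp in TKO regular, so the libraries with and without DAXX do not measure the same stretch. The chr5 locus, 37081 bp, had 2.14 FPKM in TKO DAXX-knockout 2i, 6.87 in TKO DAXX-knockout regular, 2.10 in TKO 2i and 2.39 in TKO regular. It was drawn at 9128 bp in TKO DAXX-knockout 2i and 11313 bp in TKO 2i, against 37092 bp in TKO DAXX-knockout regular. TKO DAXX-knockout regular was high here as at the chr11 and chr15 loci, while several other members over 10 kb, such as the chr18 locus, peaked in another library. TKO DAXX-knockout regular held the highest value of 11 of the 44 members (25%), beside 27.7% of all loci.

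The remaining members were low. Of the 44, 29 (65.9%) had at least 1 FPKM in all 4 TKO libraries, beside 93.9% of all loci. The ratio of the highest to the lowest TKO library had a median of 3.49, beside 1.93 over all loci, and was 10 or more in 6. In 16 members the authors' 4 FPKM intervals shared a common value, and in 7 an interval reached 0. TKO regular was the highest library in 15 members (34.1%, beside 22.7% of all loci), TKO 2i in 12, TKO DAXX-knockout regular in 11 and TKO DAXX-knockout 2i in 6. The rule asks for at least 1 FPKM in TKO regular and for no level in the others, and all loci of the fit carry the same minimum. The part of that minimum in these shares was not tested.

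**Figure D3:**
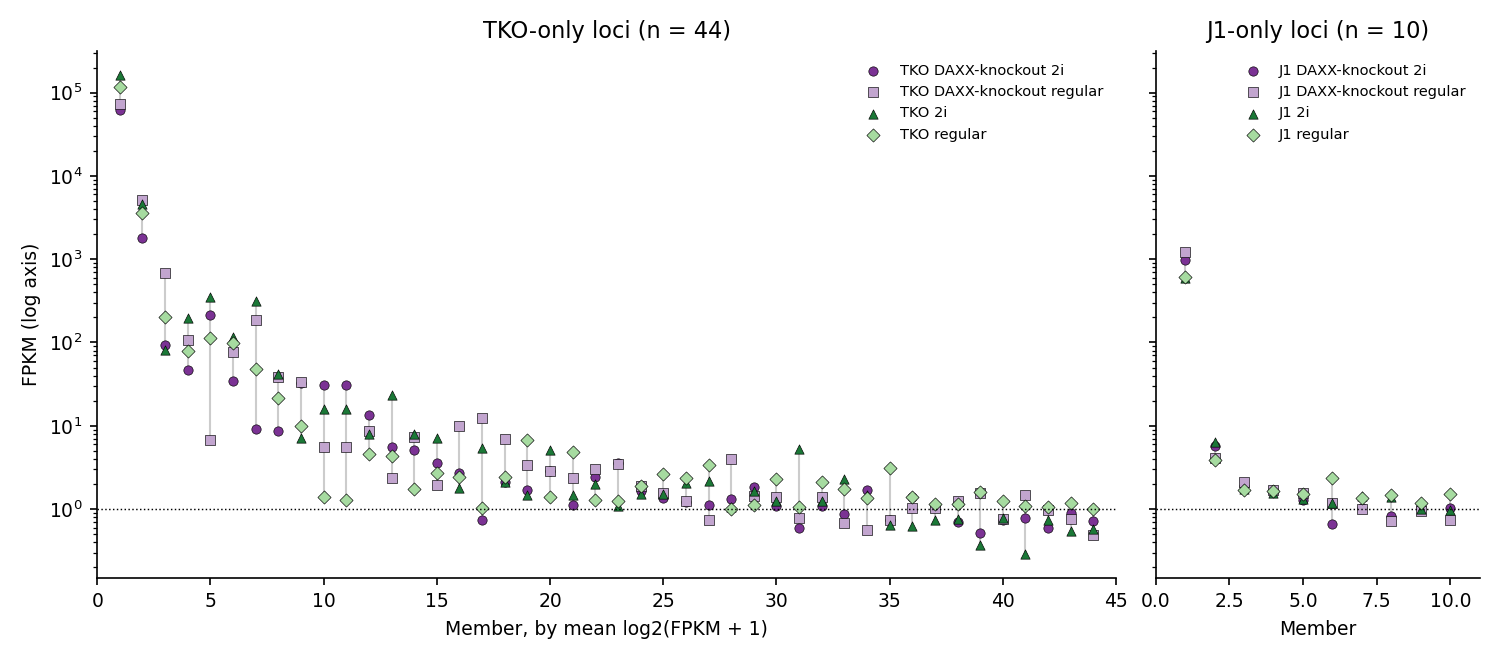
FPKM (log axis) of each of the 44 TKO-only loci in the 4 TKO libraries (left) and of each of the 10 J1-only loci in the 4 J1 libraries (right), ranked by their mean log2(FPKM + 1). Symbols are libraries, grey lines join the lowest and highest value of a locus, and the dotted line is 1 FPKM. Values of the TKO-only loci run from 164337 down to 0.289 FPKM, with a few loci above 100 FPKM.

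Among the J1-only loci, 1 was short and high. The locus chr5:115333762-115333886 (124 bp) had 968 FPKM in J1 DAXX-knockout 2i and 1231 in J1 DAXX-knockout regular, against 592 in J1 2i and 615 in J1 regular. The values with and without DAXX did not overlap, although the authors' intervals did. Span bears on FPKM at this size, and its part in these values was not tested. The locus was drawn at 118 bp in J1 DAXX-knockout 2i and 122 bp in J1 DAXX-knockout regular, against 124 bp in J1 2i and J1 regular. Its ends agreed within 8 bp and the nearest TKO locus lay 39500 bp away, which made it the 1 J1-only locus with both sharp bounds and over 10 kb to the next TKO locus.

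The longest J1-only locus, chr10:61178060-61198397 (20337 bp), had 5.78 FPKM in J1 DAXX-knockout 2i and 4.10 in J1 DAXX-knockout regular, against 6.39 in J1 2i and 3.90 in J1 regular. Both 2i libraries were above both regular ones. A TKO 2i locus of 48969 bp at 33.8 FPKM began 2992 bp from it. Adjacent on chromosome 2, chr2:37425454-37430093 (4639 bp) and chr2:37430145-37433894 (3749 bp) were 2 members side by side. The first had 1.87, 2.12, 1.75 and 1.69 FPKM in J1 DAXX-knockout 2i, J1 DAXX-knockout regular, J1 2i and J1 regular, and the second had 1.10, 0.936, 0.999 and 1.19. The values of each differed little. However, the second was drawn at 561 bp in J1 DAXX-knockout 2i, 6879 bp in J1 DAXX-knockout regular and 2894 bp in J1 2i, so they do not rest on the same stretch. TKO loci lay 3438 bp and 5685 bp from the 2 members.

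The locus chr2:65506804-65509363 (2559 bp) had 1.71 FPKM in J1 DAXX-knockout 2i, 1.69 in J1 DAXX-knockout regular, 1.57 in J1 2i and 1.62 in J1 regular. These values too differed little, but in J1 DAXX-knockout 2i the matched locus spanned 13304 bp. The nearest TKO locus lay 101332 bp from the member. The other J1-only loci were of 469 to 1002 bp. At chr17:74598501-74598970 the FPKM was 0.663 in J1 DAXX-knockout 2i, 1.19 in J1 DAXX-knockout regular, 1.20 in J1 2i and 2.34 in J1 regular. The drawn spans there were 2123, 1207, 924 and 469 bp in the same order. At chr14:69811859-69812580 and at chr19:46422689-46423555 the authors' intervals in the J1 libraries all shared a value. The chr14 locus was drawn at 1047 bp in J1 DAXX-knockout regular, against 721 bp in J1 regular. Both loci had lower values with DAXX knocked out. They were at 1.02 and 0.988 FPKM, and at 0.824 and 0.726 FPKM, in J1 DAXX-knockout 2i and J1 DAXX-knockout regular, against 1.45 and 1.37, and 1.40 and 1.48, in J1 2i and J1 regular. At chr6:79632360-79632924 the FPKM was 1.03 in J1 DAXX-knockout 2i, 0.743 in J1 DAXX-knockout regular, 0.984 in J1 2i and 1.52 in J1 regular, and the nearest TKO locus was 647576 bp away.

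Taking the J1-only set as a whole, the ratio of the highest to the lowest J1 library had a median of 1.55, beside 2.03 over all J1 loci and 3.49 in the TKO-only set. An overlap of at least 50% in both directions in every J1 library was met by 5 of 10 (50%), beside 69.2% of all J1 loci. At the others the ratio compares unlike stretches. All 4 intervals shared a value in 8 of 10 loci, and 5 had at least 1 FPKM in all 4 J1 libraries. A TKO locus lay within 10 kb of 7 and within 1000 bp of 1. The count of 10 moved with single libraries: it was 31 without J1 2i, 22 without J1 DAXX-knockout regular, 16 without J1 DAXX-knockout 2i, 22 without TKO regular, 22 without TKO DAXX-knockout 2i and 16 without TKO 2i.

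The members were also set against DAXX and medium inside their own background, which the rule did not compare. The rule did use the regular-medium, DAXX-intact library, which had to reach 1 FPKM and stands on the DAXX-intact and regular side of both comparisons. The members' values below are therefore not independent of the rule, and all loci of the fit carry the same minimum. The fit was limma on log2(FPKM + 1) over all loci of the background, with DAXX and medium as terms and 4 libraries, which leaves 1 residual degree of freedom. A p that misses the threshold in so small a design does not show that a locus did not change. With DAXX knockout in TKO no TKO-only locus passed an adjusted p of 0.05 in either direction, and no locus of the 14751 tested did (0% called higher and 0% called lower). At an unadjusted p under 0.05, 5 members were higher and 3 lower, beside 3.17% and 2.07% of all loci. Both members of the chrX pair that share matched loci are among the higher, so these counts do not hold separate observations only. In both media alike, 13 members were higher with the knockout and 15 lower, beside 33.2% and 23% of all loci. Their log2 changes ran from −2.31 to 1.85 with a median of −0.13, beside 0.08 over all loci. The direction of that median turned without the FPKM minimum, to 0.16 over 131 loci, beside 0.11 over all 17139 loci then tested.

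The lowest p belonged to chr12:23302411-23302694, which was higher in both DAXX-knockout libraries by log2 1.85 ± 0.26 (standard error), with 1.66 in regular medium and 2.04 in 2i. Its unadjusted p was 0.00447 and its adjusted p 0.755 in limma. As given above, it was drawn shorter in both DAXX-knockout libraries, so the fold does not rest on the same stretch, and the part of span in it was not tested. It was also the 1 member over 2-fold higher in both media, beside 1.15% of all loci, and no member was over 2-fold lower in both, beside 0.739%.

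With 2i plus vitamin C in TKO, again no member and no locus was called (0% in each direction). At an unadjusted p under 0.05, 5 members were higher and 4 lower, beside 5.95% and 3.55% of all loci. The chrX pair that shares matched loci is again counted as separate members among the higher. With and without DAXX alike, 10 members were higher in 2i and 16 lower, beside 34.5% and 27.7%. The median log2 change was −0.18, beside 0.06 over all loci, and without the FPKM minimum it turned to 0.06, beside 0.09. Beyond 2-fold with and without DAXX, 3 members were higher and 1 lower, beside 2.26% and 1.38%. Those higher include both members of that chrX pair.

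The lowest p belonged to chrX:151420538-151430373, with 30.9 FPKM in TKO DAXX-knockout 2i, 16.1 in TKO 2i, 5.50 in TKO DAXX-knockout regular and 1.38 in TKO regular. Both 2i libraries were above both regular ones, by log2 2.57 ± 0.28 (standard error), with an unadjusted p of 0.00214 and an adjusted p of 0.522 in limma. The intervals of both 2i values started at 0, and they reached 607 FPKM with DAXX knocked out and 65.0 with DAXX intact. In every TKO library but TKO regular it is part of a longer locus that also covers the neighbouring member at chrX:151487664, so the fold does not rest on the same stretch in all libraries.

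In J1 no J1-only locus and no locus of the 14798 was called for DAXX knockout or for 2i (0% in each direction). At an unadjusted p under 0.05, 1 member was higher and none lower with DAXX knockout, beside 2.43% and 2.22% of all loci. For 2i none was higher or lower, beside 11.1% and 6.45%. In both media alike, 3 members were higher and 3 lower with DAXX knockout, beside 23.9% and 30.1% of all loci. With and without DAXX alike, 2 were higher and 3 lower in 2i, beside 41.8% and 28.3%. No J1-only locus was over 2-fold apart in both pairs for either factor, beside 1.01% higher and 0.628% lower for DAXX and 5.1% and 2.31% for 2i. The member with the lowest p for DAXX was chr5:115333762-115333886, given above and drawn shorter in both DAXX-knockout libraries. Its change was log2 0.85 ± 0.23 (standard error), with an unadjusted p of 0.0334 and an adjusted p of 0.818 in limma. For 2i the lowest p belonged to chr10:61178060-61198397, at log2 0.50 ± 0.22 with an unadjusted p of 0.107 and an adjusted p of 0.343 in limma. The median log2 change was −0.04 for DAXX, beside −0.02 over all loci, and −0.03 for 2i, beside 0.13. Without the FPKM minimum the median for 2i turned to 0.03, beside 0.17 over all loci.

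**Figure D4:**
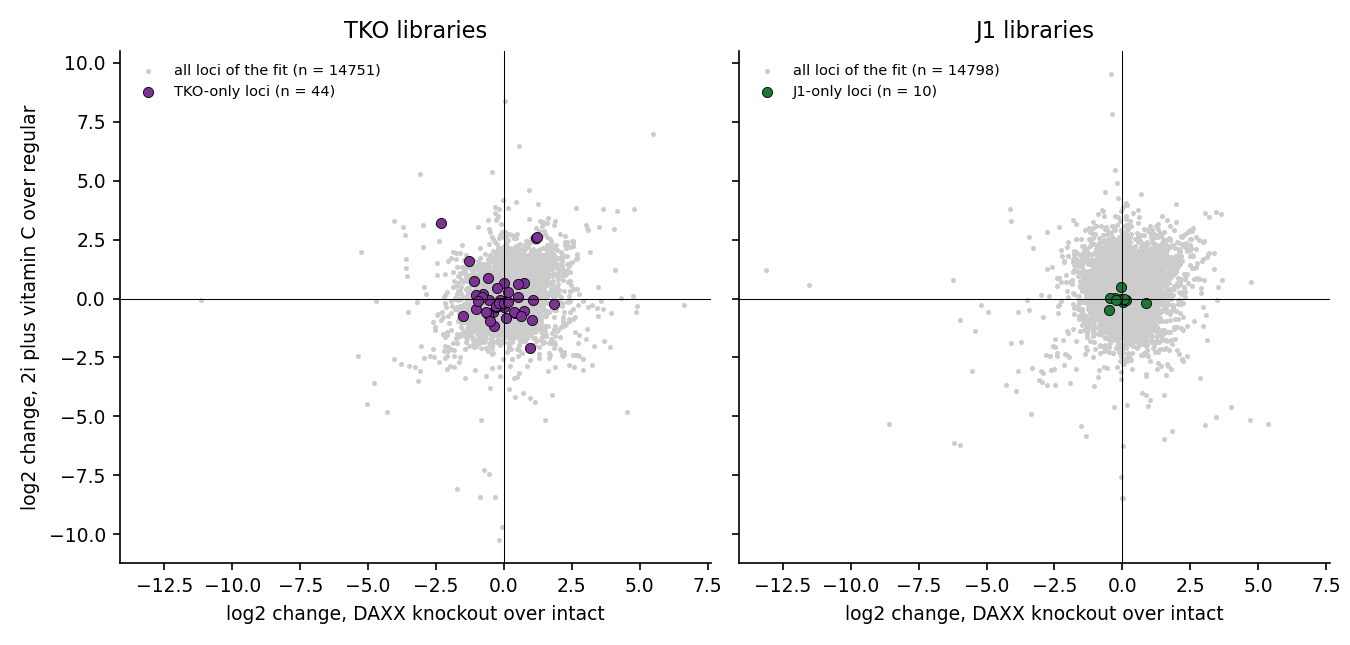
Fitted log2 change of each locus with 2i plus vitamin C (vertical axis) against that with DAXX knockout (horizontal axis), in the TKO libraries (left) and the J1 libraries (right), on the log2(FPKM + 1) scale. Grey points are all loci of the fit and large points the 44 TKO-only and 10 J1-only loci; none was called in limma, and the J1-only loci run from −0.50 to 0.85 for DAXX and from −0.50 to 0.50 for 2i.

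Each set had 1 member over a long repeat element. The repeat table covers LINE, LTR and satellite copies, none under 5001 bp. A TKO-only locus overlapped an entry in 1 of 44 cases (2.27%), beside 652 of 14752 loci (4.42%), and a J1-only locus in 1 of 10, beside 564 of 14798 (3.81%). No member of either set overlapped an IAP, ERV1, ETn, MERVL or MMERVK10C element, the LTR retrotransposon families of the table. Each of these groups lay under few loci of any kind, at most 0.563% of all TKO loci and 0.480% of all J1 loci (MERVL and ERVL). In sets of 44 and 10 such a lack therefore tells little. The shares are those of the loci as drawn in the regular-medium library. In other TKO libraries the long loci matched to chrX:151420538-151430373 and chrX:151487664-151496908, which span 107053 bp in TKO DAXX-knockout 2i, 77235 bp in TKO DAXX-knockout regular and 173943 bp in TKO 2i, held 4 elements in all, of the LINE1 subfamilies L1Md_A, L1Md_F2 and L1Md_T. With these, 3 of the 44 TKO-only loci had an element under a matched locus of some TKO library. Of the TKO loci as a whole, 64 overlapped an IAP element, an endogenous retrovirus of the intracisternal A-particle type, and 57 of these were matched in all 4 J1 libraries, 4 in 3 and 3 in 2. Of 83 loci over MERVL and related ERVL elements, 76 were matched in all 4 J1 libraries. Of 127 over L1Md_A and 243 over L1Md_T, both young LINE1 subfamilies, 115 and 225 were. An element lay within 10 kb of 5 TKO-only loci (11.4%, beside 8.15% of all loci). Besides the L1_Mus2 copy given below, these were MERVL-int near chr18:77424555, L1Md_A near chr17:22834384 and L1Md_F2 near each member of the chrX pair. Among J1-only loci an element lay within 10 kb of 2 (20%, beside 7.36% of all J1 loci). They were the L1Md_T copy given below and an L1Md_F2 element 686 bp from chr6:79632360-79632924.

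The element in a TKO-only locus was an L1_Mus2 copy, an older LINE1, at chr15:34521463-34527502 inside the 103841-bp locus, of which it makes up 5.82%. It held 10 reads in TKO DAXX-knockout 2i, 18 in TKO DAXX-knockout regular, 7 in TKO 2i and 18 in TKO regular. In the J1 libraries it held 1 read in J1 DAXX-knockout 2i, 2 in J1 DAXX-knockout regular, 2 in J1 2i and 0 in J1 regular, where a count of 0 allows up to 3 reads. The sums were 53 reads in TKO and 5 in J1, and every TKO library was above every J1 library. This is the same contrast that chose the locus and is given without a test. The element was too low for the test of repeats, which asked for a mean of 0.1 RPKM. Without that filter edgeR's quasi-likelihood test gave log2 0.42 ± 1.12 (standard error) for DAXX knockout in TKO, adjusted p 0.764, and −0.90 ± 1.29 for 2i, adjusted p 0.750, over 16046 elements.

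The element over a J1-only locus was a copy of L1Md_T at chr14:43645202-43651109. The 1002-bp locus chr14:43649113-43650115 lies wholly inside it and makes up 17.0% of it. The locus had 1.28 FPKM in J1 DAXX-knockout 2i, 1.57 in J1 DAXX-knockout regular, 1.31 in J1 2i and 1.49 in J1 regular. All intervals shared a value, but that of J1 DAXX-knockout 2i ran from 0.00863 to 2.55. The matched locus was drawn at 7075 bp in J1 DAXX-knockout 2i, 1833 bp in J1 DAXX-knockout regular and 1281 bp in J1 2i. The values thus do not rest on the same stretch. The element had 0.74 RPKM in TKO DAXX-knockout 2i, 0.68 in TKO DAXX-knockout regular, 1.37 in TKO 2i and 2.44 in TKO regular, from 332, 300, 595 and 1431 reads. In J1 it had 6.65 RPKM in J1 DAXX-knockout 2i, 8.72 in J1 DAXX-knockout regular, 4.83 in J1 2i and 5.37 in J1 regular, from 3609, 4083, 1924 and 2438 reads. The element was thus read in all 8 libraries, though no TKO library listed a locus on the 1002-bp stretch, and every J1 value was above every TKO value, which is given without a test. A TKO regular locus of 1430 bp at 0.323 FPKM ended 2971 bp before the J1-only locus, inside the same element. The longer locus drawn in J1 DAXX-knockout 2i overlaps that TKO locus.

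With DAXX knockout in TKO the reads of this L1Md_T element fell by log2 1.37 ± 0.54 (standard error; edgeR's quasi-likelihood test, adjusted p 0.0433 over 11332 elements). Of all elements tested, 56.4% were called lower and 3.42% higher, and the median over the 4951 L1Md_T elements was −1.15. TMM scaling, which moved the median over all elements from −1.18 to −0.03, gave −0.14 for the element with an adjusted p of 1.00, and the call held in 4 of 13 alternatives. In J1 the change with DAXX knockout was 0.58 ± 0.52 with an adjusted p of 1.00, beside 7.81% of elements called higher and 0.0176% lower. The difference between the DAXX changes in J1 and in TKO was log2 1.95 ± 0.75 with an adjusted p of 0.0733, beside 1.59 over the L1Md_T elements and 0.503% of elements called higher.

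**Figure D5:**
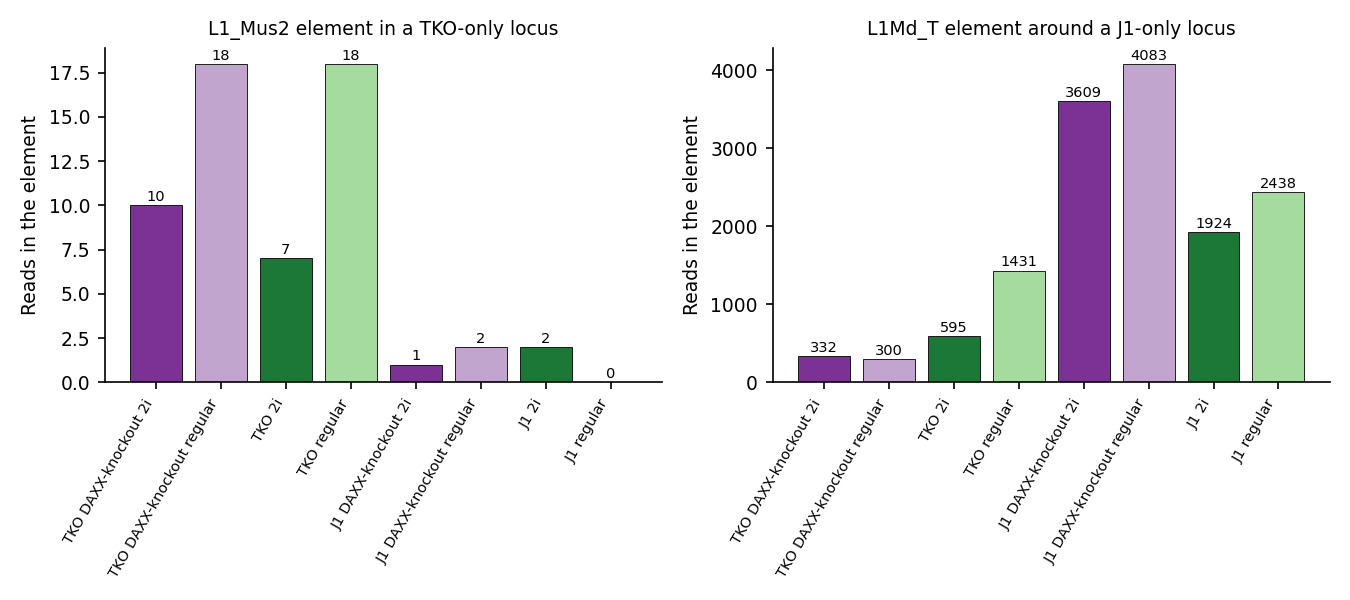
Reads in the 2 repeat elements that members overlap, in the 4 TKO and then the 4 J1 libraries, with the count above each bar. Left, the L1_Mus2 element inside the longest TKO-only locus, with 7 to 18 reads in TKO and 0 to 2 in J1; right, the L1Md_T element around a J1-only locus, with 300 to 1431 reads in TKO and 1924 to 4083 in J1.

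The TKO-only loci were spread over the genome. Chromosomes 5, 11 and 18 held 5 each, 8 and 13 held 4 each, and 2, 6, 12 and X held 3 each. For chromosome 18 this is 11.4% of the members, beside 2.51% of all TKO loci, but 2 of its 5 members share a matched locus. No 3 members lay within 100 kb of each other in either set. The J1-only loci lay on 7 chromosomes, with 3 on chromosome 2, of which 2 are the adjacent pair.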

How the data were processed

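RNA of 8 groups, 1 library each, was measured. TopHat, Bowtie2 2.2.4, Cufflinks, Cuffdiff and mm9 appear in the submitters' processing notes without a stated role. The authors deposited FPKM of loci assembled in each library, with intervals and no gene names. Per the file headers, the repeat table gives read counts and RPKM per element. How it counted reads that map to several elements is not given in the sources used here. Positions are as listed, and whether they count from 0 or 1 is not stated.

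Members and lists were chosen with earlier results of these data known. Loci were matched by overlap, and the value in another library is that of the locus with the largest overlap. The TKO to J1 difference was not tested, because it chose the members. DAXX and medium were fitted within each background with limma 3.58.1 on log2(FPKM + 1), two-sided, with Benjamini-Hochberg adjustment over all loci. Folds of low loci are understated on that scale. The fit dropped 1 TKO locus with a failed estimate, no member. Repeat counts were tested with edgeR 4.0.16 (R 4.3.3) using library totals recovered from count and RPKM. DESeq2 1.42.0 and limma were alternatives. Both tests were tried on simulated data. With 1 library per group the p-values rest on the disagreement between pairs of libraries and on other loci, not on replicate cultures. The spread between lines of a genotype was not measured.

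The loci named are, in each set, the 10 highest by mean log2(FPKM + 1), the 3 longest, those at the threshold, those over a repeat element, and any called. The members with sharp bounds, with shared matches or beside a repeat element were named after their values were seen.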

Additional observations from a re-analysis of the deposited data

Results flagged for a closer look

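The L1Md_T element around the J1-only locus chr14:43649113-43650115 had values on opposite sides of its DAXX-intact partners in the 2 backgrounds, although neither the change in J1 nor the difference between backgrounds passed the test. In TKO both DAXX-knockout libraries were below their DAXX-intact partners, at 0.74 against 1.37 RPKM in 2i and at 0.68 against 2.44 RPKM in regular medium. In J1 both were above them, at 6.65 against 4.83 RPKM in 2i and at 8.72 against 5.37 RPKM in regular medium. The fitted change was −1.37 in TKO (edgeR, adjusted p 0.0433; under TMM −0.14, adjusted p 1.00) and 0.58 in J1 (adjusted p 1.00). The fitted difference, J1 minus TKO, was log2 1.95 (edgeR, adjusted p 0.0733). The median over all elements differed by 1.41, and under TMM scaling the difference was 0.54 for this element and 0.01 for that median.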

How the results depend on the processing

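The member counts depended on the FPKM minimum. Without a minimum there were 131 TKO-only and 21 J1-only loci, and with a minimum of 5 there were 10 and 1. With J1 2i as the library the loci are drawn from, the J1-only loci numbered 20. Leaving out 1 library at a time gave between 56 and 83 TKO-only loci, and between 12 and 31 J1-only loci. An overlap of 50% of the shorter locus gave 46 and 9. The fits called 0 members in each of 6 alternatives per comparison, and without 1 library limma has no residual degree of freedom, so no test. Centring each library moved the median log2 change over all loci from 0.08 to −0.09 for DAXX in TKO and from 0.13 to −0.16 for 2i in J1, and that of the TKO-only loci for DAXX from −0.13 to −0.29. Without an FPKM minimum the TKO-only medians were 0.16 for DAXX and 0.06 for 2i. With 50% reciprocal overlap, 202 of 10236 J1 loci were called for 2i and none of the 5 members tested. The L1_Mus2 element passed no RPKM minimum, so its other alternatives gave no value. The adjusted p of the L1Md_T element's difference ranged from 9.05e-05 (without J1 DAXX-knockout regular) to 0.999 (TMM, log2 0.54), and was also under 0.05, at 0.00457, without J1 DAXX-knockout 2i. The cause of these shifts was not tested. No paired analysis by replicate number was possible because the labels give none; the fits pair libraries only by their medium and DAXX terms. FPKM carry no read counts, so no counting error is given for the loci.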
